A study of Homo sapiens with 26 samples.

Results

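The response of CF airway epithelial cells to raised glucose was measured by RNA sequencing of 12 libraries, chosen by their labels, out of 26 in the study. Of these, 6 came from 16HBEge cells of genotype DeltaF508 CFTR in high glucose (17.5 mM) and 6 from the same cells in normal glucose (5.5 mM), each condition lasting 7 days with fresh medium every day. 16HBEge cells are a gene-edited derivative of 16HBE14o-, an immortalised line of human bronchial epithelium, and both CF groups carry the CFTR mutation, so the comparison is of glucose and not of genotype. Cells grew on permeable Transwell supports seeded with 250000 cells per well, and 2 Transwells were pooled into each library. Beside them stand 5 libraries of cells with WT CFTR in high glucose and 6 in normal glucose, used where the CF and WT responses were compared. The 3 WT libraries labelled as not polarized were not used. The labels do not say whether the libraries of a group were separate cultures, so p-values measure only the spread between these libraries, which may be technical. Of 58735 genes in the table, 16338 had enough reads to be tested.

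Airway epithelium keeps the glucose of its surface liquid far below that of blood, and leak of glucose into that liquid rises when blood glucose is high, as in the diabetes that often accompanies cystic fibrosis. Inside a cell, glucose 6-phosphate formed by hexokinases releases the paired transcription factors MondoA or ChREBP and MLX to the nucleus, where they switch on TXNIP and ARRDC4, arrestins that remove glucose transporters from the surface. Many glycolytic genes are targets of HIF1A, the oxygen-regulated factor that prolyl hydroxylases mark for destruction. CFTR, the epithelial sodium channel and the sodium pump together set the salt and water balance of the airway surface, and tight and adherens junctions seal the sheet.

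Libraries held 14736391 to 18338084 counts in CF high glucose and 14658319 to 17940930.0 in CF normal glucose. The first principal component of the 12 CF libraries (32.6% of the variance) set libraries 1 to 3 of each group apart from libraries 4 to 6, and the second (13.99%) separated the glucose groups. Labels give no meaning to the numbers. Ribosomal protein genes took a share of counts that followed the same sets, at 4.35 ± 0.221% in numbers 1 to 3 and 3.35 ± 0.0719% in numbers 4 to 6 of CF high glucose, and 4.43 ± 0.554% and 3.48 ± 0.263% in CF normal glucose (SD, n = 3 each). The model therefore held a term for the number set, and values from each set alone are given below. Of 7 markers of simple airway epithelium all were expressed, with a summed level of 5802 to 6652 CPM in CF high glucose and 5926 to 6274 CPM in CF normal glucose. CPM are counts scaled to a common library total, here the raw total for the markers of this paragraph and a TMM-adjusted total for all genes below. Levels of different genes are not comparable in CPM, which ignores gene length. The 6 basal cell markers summed to 117 to 168 CPM in CF high glucose and 115 to 164 CPM in CF normal glucose, with TP63 under 1 CPM on average in both groups. The club cell marker SCGB1A1 and the goblet cell markers MUC5AC and TFF3 were at 0 in all 12 libraries. Of 6 fibroblast markers 5 averaged under 1 CPM in both groups. COL1A1 averaged 23.1 CPM in CF high glucose and 19.4 CPM in CF normal glucose. The ionocyte factor FOXI1 averaged 6.90 CPM in CF high glucose and 4.54 CPM in CF normal glucose, while the ionocyte markers ASCL3 and BSND averaged 0 CPM in CF high glucose and at most 0.0227 CPM in CF normal glucose. Of 4 endothelial markers CDH5 averaged 22.9 CPM in CF high glucose and 22.7 CPM in CF normal glucose, KDR averaged 21.9 and 23.4 CPM, and VWF and PECAM1 stayed under 1 CPM in both groups. The 4 summed to 42.1 to 49.0 CPM in CF high glucose and 31.7 to 62.4 CPM in CF normal glucose. The 6 ciliated cell markers summed to 7.21 to 12.9 CPM in CF high glucose and 7.45 to 11.1 CPM in CF normal glucose, with FOXJ1 under 1 CPM. The part of these markers in the results was not tested. Leukocyte markers summed to 0.136 to 1.05 CPM in CF high glucose and 0 to 0.546 CPM in CF normal glucose. In bulk libraries such as these, fewer cells of a type and less RNA per cell cannot be told apart.

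**Figure D1:**
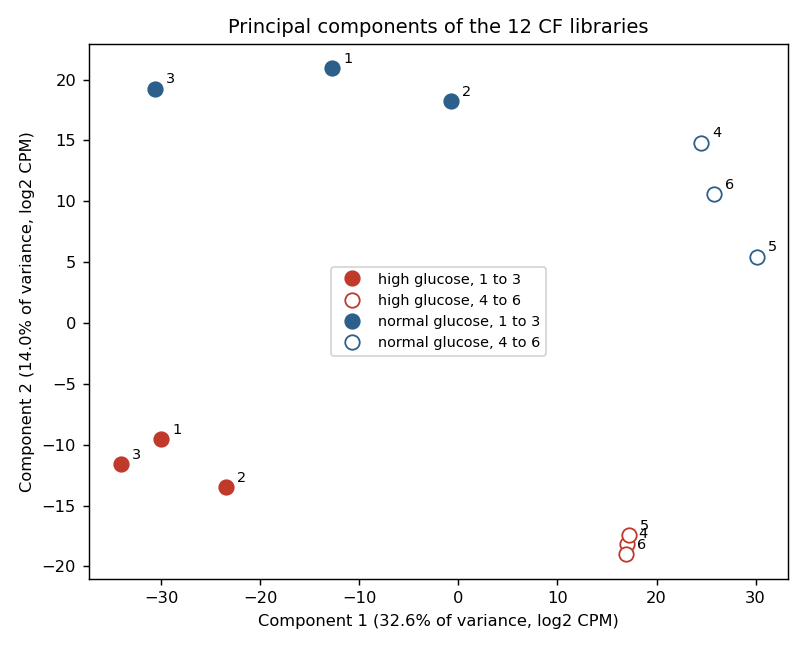
Principal components of log2 CPM in the 12 CF libraries, with the number of each library beside its point; filled points are numbers 1 to 3 and open points 4 to 6. High glucose libraries lie below normal glucose libraries on component 2 (13.99% of the variance), and the number sets separate on component 1 (32.6%).

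High glucose changed many genes in CF cells, mostly by small amounts. Of 16338 genes tested, 2812 (17.2%) passed an adjusted p under 0.05, the threshold for a call throughout, with 1392 higher (8.52%) and 1420 lower (8.69%). The median size of a called change was 0.28 on the log2 scale. Changes of at least 1.5-fold were called for 175 genes upward and 154 downward, and of at least 2-fold for 36 and 31 genes (67 genes, 0.41%). All 6 high glucose libraries lay above all 6 normal glucose libraries for 364 genes (2.23%), and below them for 388 genes (2.37%). Without the number-set term 1374 genes were called, and libraries numbered 1 to 3 or 4 to 6 alone gave 1349 and 2330. Called genes that fell were longer and had a lower GC content (median 6456 bases and 48.1%) than those that rose (4446 bases and 53.2%) or all genes tested (4407 bases and 49.6%). Scaling for both properties left 2991 genes called, 2448 of them shared with the 2812. Among 256 called genes that a rule on size or gene list picked out, 254 had the same sign in both number sets fitted alone, and 124 were called in both. These genes were called from the same libraries, which favours a shared sign, so the agreement is no independent check. Under 28 alternative treatments of the data, 109 kept the call wherever the treatment gave them a value. DESeq2 gave a value for 255 of the 256, and limma on filtered FPKM for 252.

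The arrestins TXNIP and ARRDC4 rose more than any other abundant protein-coding gene whose groups did not overlap. TXNIP, which blocks thioredoxin and glucose uptake, had 886, 940.1 and 998 CPM in CF high glucose, against 160.1, 235 and 373 CPM in CF normal glucose (lowest, median and highest of 6 libraries, as for other genes below). Every high glucose library was above every normal glucose library, and the change was 3.88-fold (log2 fold change 1.96 ± 0.15 SE, adjusted p = 3.5e-08). The gene is ENSG00000265972, GRCh38 chromosome 1, 145992435 to 145996600 (minus strand). ARRDC4, a related arrestin, had 89.0, 111 and 117 CPM in CF high glucose, against 21.6, 32.4 and 42.8 CPM in CF normal glucose, again with no overlap (log2 fold change 1.75 ± 0.14 SE, adjusted p = 7.56e-08; ENSG00000140450, GRCh38 chromosome 15, 97960698 to 97973838). KLF10, a zinc finger factor that responds to carbohydrate, had 57.3, 62.7 and 69.2 CPM in CF high glucose, against 31.5, 37.1 and 40.8 CPM in CF normal glucose (log2 fold change 0.78 ± 0.06 SE, adjusted p = 2.51e-11). The 6 and 6 libraries of KLF10 did not overlap. Of 18 tested MondoA and ChREBP targets and partners, 5 rose and 4 fell (50% called, against 17.2% of all genes). Their median log2 fold change was 0.06, against -0.000165 for all genes tested. The other rises were MLXIPL, which encodes ChREBP itself (0.49 ± 0.15), and the E-box factor USF1 (0.23 ± 0.08). The falls were the transporter SLC2A1 (-0.53 ± 0.07), the third arrestin ARRDC3 (-0.84 ± 0.11), PFKFB3 (-0.77 ± 0.10) and PFKFB4 (-0.75 ± 0.10). PFKFB3 and PFKFB4 encode bifunctional enzymes that make and break down the fructose bisphosphate that activates phosphofructokinase.

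The promoter windows of the 2 arrestins are shown because these genes had the largest rises of the list. Each runs from 250 bases before to 50 bases after the annotated start (RefSeq, GRCh38.p14), and capitals mark the match to the carbohydrate response element pattern in TXNIP, which is 2 copies of CACGNG with 5 bases between them, and to the E-box CACGTG in ARRDC4.

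TXNIP promoter, chr1:145996530-145996829, minus strand: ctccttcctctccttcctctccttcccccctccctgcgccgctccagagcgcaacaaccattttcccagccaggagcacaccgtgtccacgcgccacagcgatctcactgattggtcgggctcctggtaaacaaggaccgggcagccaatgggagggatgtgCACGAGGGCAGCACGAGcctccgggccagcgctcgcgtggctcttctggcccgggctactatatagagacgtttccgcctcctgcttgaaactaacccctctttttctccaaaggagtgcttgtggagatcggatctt
ARRDC4 promoter, chr15:97960453-97960752, plus strand: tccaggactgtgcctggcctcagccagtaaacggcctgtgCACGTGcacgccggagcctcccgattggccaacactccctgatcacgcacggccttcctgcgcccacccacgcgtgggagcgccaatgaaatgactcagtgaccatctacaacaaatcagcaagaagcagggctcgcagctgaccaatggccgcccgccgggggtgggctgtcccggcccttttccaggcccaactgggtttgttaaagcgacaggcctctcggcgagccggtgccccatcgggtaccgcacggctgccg

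The TXNIP match begins 88 bases before the start. Searched on both strands, that pattern was in 20 of 27305 promoter windows (0.0732%). Among 10927 tested genes with a window, 16 held it, and 4 of these rose, 1 fell and 11 were not called (median log2 fold change 0.02). The other rises were HPF1 (0.29), RCN3 (0.36) and TCEAL4 (0.20), and AKAP10 (-0.19) fell. The E-box of ARRDC4 begins 210 bases before the start, and 7.43% of all windows hold the same 6 letters. A match is a description of these letters, not of binding.

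**Figure D2:**
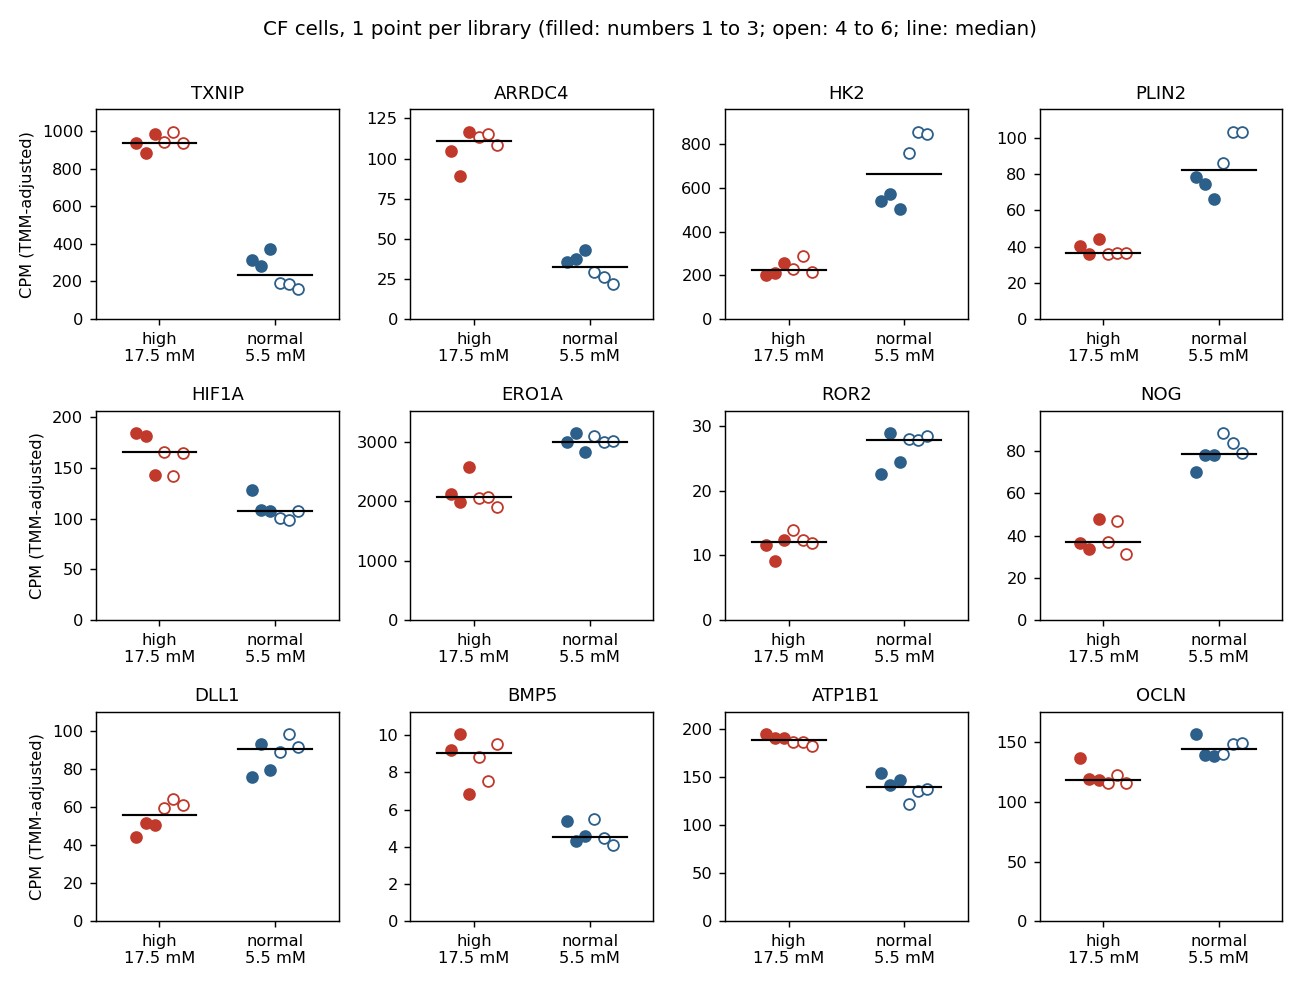
Level of 12 genes in each CF library in CPM, high glucose left and normal glucose right in each panel; filled points are libraries numbered 1 to 3, open points 4 to 6, and lines are medians of 6. TXNIP lies between 886 and 998 CPM in high glucose, against 160 to 373 CPM in normal glucose, and HK2 between 199.5 and 289 CPM, against 506 to 858 CPM.

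The hexokinase HK2 and the transporters SLC2A1 and SLC2A3 fell. HK2, a hexokinase that traps glucose in the cell as its phosphate, had 199.5, 224 and 289 CPM in CF high glucose, against 506, 666 and 858 CPM in CF normal glucose, a change to 0.350 of the normal glucose level (log2 fold change -1.52 ± 0.10 SE, adjusted p = 2.98e-09; ENSG00000159399, GRCh38 chromosome 2, 74833981 to 74893359). SLC2A3, the high-affinity transporter GLUT3, had 1037, 1120.0 and 1212 CPM in CF high glucose, against 1555, 1669 and 1874 CPM in CF normal glucose (log2 fold change -0.60 ± 0.05 SE, adjusted p = 1.01e-10). SLC2A1, the basal transporter GLUT1, had 443, 483 and 534 CPM in CF high glucose, against 586, 709.99 and 812 CPM in CF normal glucose (log2 fold change -0.53 ± 0.07 SE, adjusted p = 1.11e-06). None of these 3 genes overlapped between groups. SLC2A10, or GLUT10, went the other way, with 46.9, 56.6 and 60.2 CPM in CF high glucose, against 34.9, 36.9 and 39.1 CPM in CF normal glucose (log2 fold change 0.59 ± 0.07 SE, adjusted p = 2.08e-08), and its libraries did not overlap either. Of 11 tested facilitative transporters, 2 rose, 2 fell and 7 were not called (36.4% called, against 17.2% of all genes). The second rise, SLC2A8 (0.25 ± 0.09, adjusted p = 0.0476), lost its call under 20 of the 28 alternatives.

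Of 19 tested glycolysis genes, 10 fell and 1 rose (57.9% called, against 17.2% of all genes), with a median of -0.16. Falls numbered 4 in libraries numbered 1 to 3 alone and 12 in those numbered 4 to 6 alone. After HK2 the falls were small: PFKL, the liver-type phosphofructokinase, at -0.24 ± 0.04, the phosphoglycerate kinase PGK1 at -0.25 ± 0.05 and GAPDH at -0.17 ± 0.05. GAPDH was not called in libraries numbered 1 to 3 alone (adjusted p = 0.0756). The rise was SLC16A1, a lactate and pyruvate carrier (0.21 ± 0.05), which was not called in libraries numbered 4 to 6 alone (0.11, adjusted p = 0.202). PDK1, the kinase that shuts pyruvate dehydrogenase, fell (log2 fold change -0.59 ± 0.06 SE, adjusted p = 1.64e-09). Among 32 genes of pyruvate entry and the TCA cycle 5 rose and 2 fell (21.9% called, near the 17.2% of all genes), and without the number-set term 0 rose. None of 31 tested subunits of respiratory complexes III to V and none of 13 mitochondrially encoded genes was called.

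Side routes of glucose moved in both directions. KHK, ketohexokinase, which phosphorylates fructose, had 8.49, 10.0 and 13.7 CPM in CF high glucose, against 5.87, 6.98 and 8.9987 CPM in CF normal glucose (log2 fold change 0.55 ± 0.11 SE, adjusted p = 0.000212), with some overlap. Sorbitol dehydrogenase (SORD, 0.25 ± 0.06) and aldose reductase (AKR1B1, 0.31 ± 0.09) of the polyol pathway also rose. AKR1B1 was 0.63 in libraries numbered 1 to 3 alone and -0.00210 in numbers 4 to 6 alone. In glycogen metabolism, 3 of 18 tested genes rose and 3 fell (33.3% called, against 17.2% of all genes). PYGB, a glycogen phosphorylase, rose (0.27 ± 0.06) and GBE1, the branching enzyme, fell (-0.26 ± 0.06). PPP1R3B, which brings protein phosphatase 1 to glycogen, fell as well (-0.45 ± 0.06). PYGB was not called in libraries numbered 4 to 6 alone (0.16, adjusted p = 0.0648).

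Insulin receptor and FOXO genes had 4 rises and 6 falls among 25 tested (40% called, against 17.2% of all genes). IRS2, the docking protein that couples the insulin receptor to its kinases, had 166, 192 and 208 CPM in CF high glucose, against 251, 319.9 and 382 CPM in CF normal glucose, with no overlap (log2 fold change -0.71 ± 0.09 SE, adjusted p = 1.07e-05). FNIP1, a partner of folliculin in AMPK and mTORC1 signalling, had 36.8, 40.4 and 43.9 CPM in CF high glucose, against 56.2, 65.4 and 76.3 CPM in CF normal glucose, again apart in all libraries (log2 fold change -0.70 ± 0.06 SE, adjusted p = 4.12e-10). SESN2, a stress-induced inhibitor of mTORC1, rose (0.36 ± 0.08), and was not called in the CF libraries alone without the number-set term.

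Genes known as targets of hypoxia and HIF mostly fell. Of 27 tested, 17 fell and 1 rose (66.7% called, against 17.2% of all genes), with a median log2 fold change of -0.45. Alone, 9 in libraries numbered 1 to 3 alone and 18 in those numbered 4 to 6 alone fell. ERO1A, an oxidase that forms disulfide bonds in the endoplasmic reticulum, had 1902, 2070.3 and 2584 CPM in CF high glucose, against 2824, 3006 and 3149.8 CPM in CF normal glucose (log2 fold change -0.51 ± 0.06 SE, adjusted p = 1.5e-07). All its high glucose libraries were lower, and number 3 was the highest of them. KDM3A, a histone H3 lysine 9 demethylase, had 80.7, 86.7 and 95.2 CPM in CF high glucose, against 127, 133 and 139 CPM in CF normal glucose, with no overlap (log2 fold change -0.61 ± 0.06 SE, adjusted p = 1.36e-08). NDRG1, a stress-induced cytoplasmic protein, had 642, 874 and 1116 CPM in CF high glucose, against 1099, 1449 and 1747 CPM in CF normal glucose, with overlap (log2 fold change -0.75 ± 0.14 SE, adjusted p = 0.000791). The mitophagy receptor BNIP3L (-0.46 ± 0.05) and the secreted glycoprotein STC2 (-0.60 ± 0.13) fell too. HILPDA, a lipase inhibitor on lipid droplets, fell in the whole set (-0.81 ± 0.14) but was not called in libraries numbered 1 to 3 alone (-0.57, adjusted p = 0.198). The rise was the metallothionein MT2A (0.34 ± 0.09), which was not called in libraries numbered 4 to 6 alone (0.10, adjusted p = 0.545).

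The HIF regulators did not all move the same way. HIF1A, the oxygen-labile subunit, had 142, 165 and 184 CPM in CF high glucose, against 99.0, 108 and 128 CPM in CF normal glucose, with no overlap, so its RNA rose (log2 fold change 0.59 ± 0.08 SE, adjusted p = 1.08e-05; ENSG00000100644, GRCh38 chromosome 14, 61695513 to 61748259). EGLN1, the main prolyl hydroxylase that senses oxygen, had 68.3, 84.3 and 94.3 CPM in CF high glucose, against 114, 119 and 126 CPM in CF normal glucose (log2 fold change -0.54 ± 0.06 SE, adjusted p = 1.95e-08). EGLN3, an inducible prolyl hydroxylase, had 17.8, 20.9 and 23.1 CPM in CF high glucose, against 26.5, 32.1 and 37.3 CPM in CF normal glucose (log2 fold change -0.63 ± 0.08 SE, adjusted p = 8.39e-07). Both were lower in every high glucose library. EPAS1, or HIF2A, fell slightly (-0.18 ± 0.05) and was not called in libraries numbered 1 to 3 alone (adjusted p = 0.319) or without high glucose library 6. RNA levels do not show the protein or its activity.

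Promoters of KDM3A and ERO1A are shown as the windows of 2 of the called hypoxia targets with the smallest p among those considered. Some targets, among them BNIP3L and NDRG1, were left out of that choice. Capitals mark the hypoxia response element core ACGTG or GCGTG, or its complement CACGT or CACGC on the other strand.

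KDM3A promoter, chr2:86441121-86441420, plus strand: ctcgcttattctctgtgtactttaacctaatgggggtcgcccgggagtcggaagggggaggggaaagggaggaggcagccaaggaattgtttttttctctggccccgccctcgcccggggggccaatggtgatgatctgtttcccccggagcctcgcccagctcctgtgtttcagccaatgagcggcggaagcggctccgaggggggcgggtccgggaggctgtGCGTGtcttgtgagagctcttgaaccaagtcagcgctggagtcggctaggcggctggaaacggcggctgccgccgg
ERO1A promoter, chr14:52695509-52695808, minus strand: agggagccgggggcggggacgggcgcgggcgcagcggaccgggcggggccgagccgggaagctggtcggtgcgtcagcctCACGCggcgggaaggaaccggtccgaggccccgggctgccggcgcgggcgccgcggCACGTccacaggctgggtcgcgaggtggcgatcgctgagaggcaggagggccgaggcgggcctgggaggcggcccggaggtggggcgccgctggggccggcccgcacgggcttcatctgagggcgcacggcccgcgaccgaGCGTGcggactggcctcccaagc

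KDM3A held 1 core 26 bases before the start. ERO1A held cores on the other strand that begin 170 and 114 bases before the start, and a further core 27 bases past it. Windows of INSIG2 and MXI1 were picked by the same rule and are not shown. That of INSIG2 held cores, and that of MXI1 held none. A core of either spelling was in 48.4% of all promoter windows and in 62.6% of those of tested genes, and in 20 of 22 hypoxia targets with a window.

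Lipid genes split between droplets and synthesis. PLIN2, the coat protein of lipid droplets, had 35.8, 36.4 and 44.3 CPM in CF high glucose, against 66.4, 82.4 and 103 CPM in CF normal glucose, with no overlap (log2 fold change -1.15 ± 0.08 SE, adjusted p = 4.11e-12; ENSG00000147872, GRCh38 chromosome 9, 19108375 to 19149290). G0S2, an inhibitor of triglyceride lipase, rose (0.53 ± 0.14). Of 18 droplet and triglyceride genes, 3 rose and 3 fell (33.3% called, against 17.2% of all genes). In fatty acid synthesis 7 of 13 tested genes rose and 0 fell (53.8% called, against 17.2% of all genes), with a median of 0.16. Rises numbered 2 in libraries numbered 1 to 3 alone and 8 in those numbered 4 to 6 alone. MID1IP1, which activates acetyl-CoA carboxylase, had 36.5, 43.9 and 53.3 CPM in CF high glucose, against 23.3, 29.1 and 42.1 CPM in CF normal glucose, with some overlap (log2 fold change 0.55 ± 0.07 SE, adjusted p = 4.89e-07). ELOVL1, an elongase of very long chain fatty acids, rose by less (0.29 ± 0.05). In cholesterol synthesis 8 of 24 rose and 0 fell (33.3% called, against 17.2% of all genes), with a median of 0.12. Without the number-set term only 1 was called. FDFT1, squalene synthase, had 99.0, 112 and 127 CPM in CF high glucose, against 71.2, 82.1 and 109 CPM in CF normal glucose, with overlap (log2 fold change 0.41 ± 0.06 SE, adjusted p = 1e-06), and was called under all 28 alternatives.

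**Figure D3:**
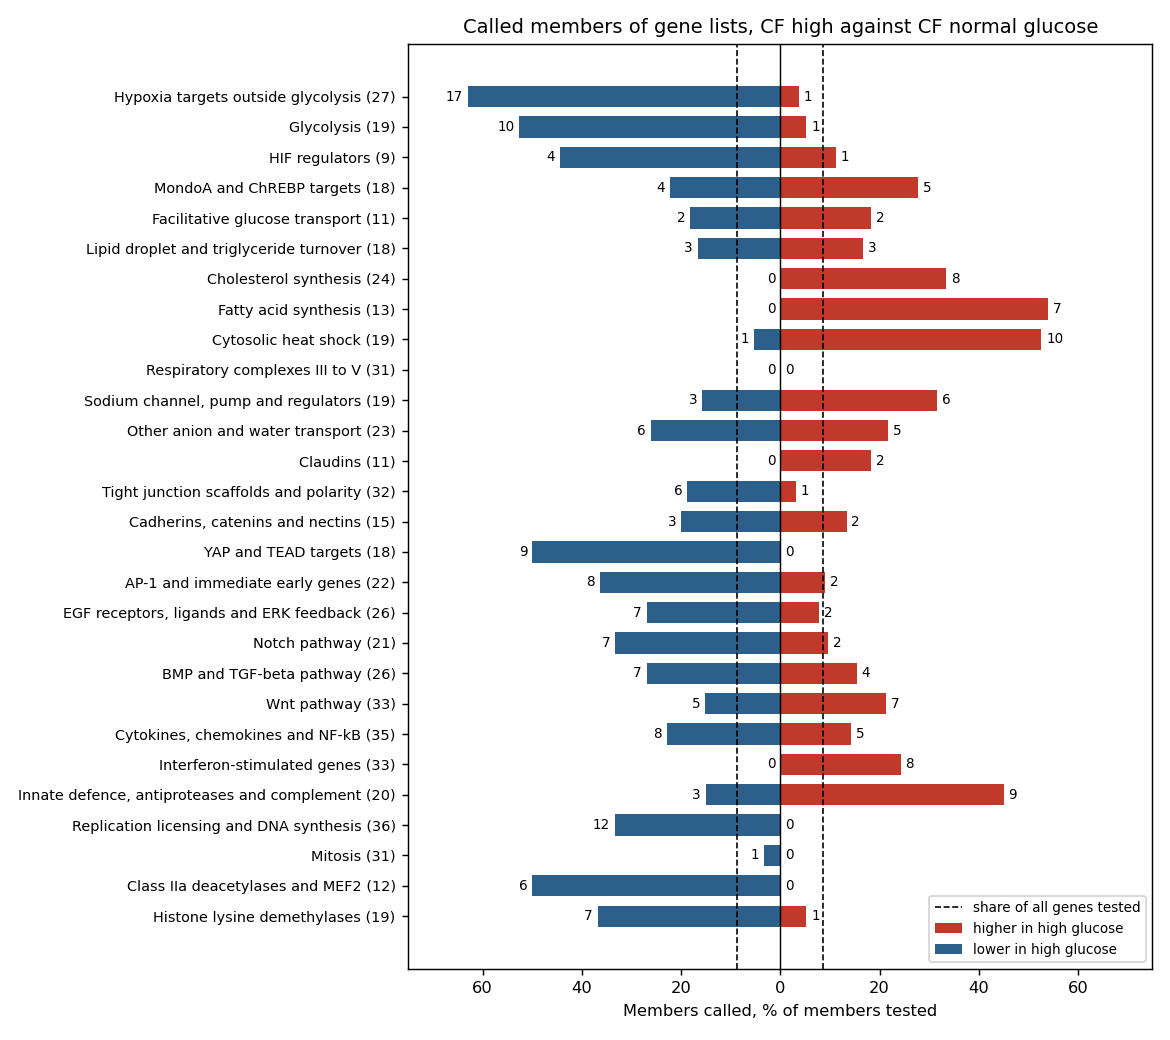
Members of 28 gene lists called lower (left) and higher (right) in CF high glucose, as a percentage of the members tested; the number tested is in brackets and the number called stands at each bar. Dashed lines are the shares of all genes tested, 8.69% lower and 8.52% higher. Hypoxia targets show 17 lower and 1 higher of 27. The lists shown were picked from a larger number without a fixed rule, so they do not give the spread of all lists.

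Ion transport genes changed in both directions. ATP1B1, the beta subunit of the sodium pump, had 182, 188 and 195 CPM in CF high glucose, against 122, 139.8 and 154 CPM in CF normal glucose, and every high glucose library was higher (log2 fold change 0.43 ± 0.04 SE, adjusted p = 4.03e-09). SCNN1A, which encodes the alpha subunit of that sodium channel, ENaC, rose (0.35 ± 0.05). NEDD4L, the ubiquitin ligase that removes this channel from the membrane, fell (-0.36 ± 0.05). PRSS8, prostasin, a protease that activates the channel, had 329, 337 and 356 CPM in CF high glucose, against 397, 415 and 444 CPM in CF normal glucose, with no overlap (log2 fold change -0.30 ± 0.05 SE, adjusted p = 8.08e-06). SGK1, a kinase that restrains NEDD4L, had 6.84, 7.28 and 9.59 CPM in CF high glucose, against 2.72, 4.25 and 6.35 CPM in CF normal glucose (log2 fold change 0.82 ± 0.13 SE, adjusted p = 9.72e-06). NR3C1, the glucocorticoid receptor, fell (-0.34 ± 0.05). Of 19 tested members of this group 6 rose and 3 fell (47.4% called, against 17.2% of all genes), as they did without the number-set term. CFTR itself had 577, 640.0 and 720.2 CPM in CF high glucose, against 669.9, 743 and 871 CPM in CF normal glucose, with overlap, and fell slightly (log2 fold change -0.22 ± 0.05 SE, adjusted p = 0.00105). Its change was -0.21 in libraries numbered 1 to 3 and -0.24 in numbers 4 to 6, each called, and it was not called in the CF libraries alone without the number-set term (adjusted p = 0.0813). Among 23 other anion and water transport genes 5 rose and 6 fell (47.8% called, against 17.2% of all genes). AQP3, a channel for water and glycerol, had 12.9, 16.2 and 19.4 CPM in CF high glucose, against 6.73, 10.0 and 11.6 CPM in CF normal glucose, without overlap (log2 fold change 0.71 ± 0.13 SE, adjusted p = 0.000127). The anion exchanger SLC4A2 fell (-0.26 ± 0.05), the bicarbonate importer SLC4A7 rose (0.28 ± 0.06), and the basolateral chloride importer SLC12A2 fell (-0.50 ± 0.08). SLC12A2 was not called in libraries numbered 1 to 3 alone (-0.27, adjusted p = 0.109).

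Junction genes mostly changed by modest amounts, and claudins other than CLDN1 and CLDN11 were not called. OCLN, occludin of the tight junction strand, had 116, 118 and 136 CPM in CF high glucose, against 138, 144 and 156 CPM in CF normal glucose, with no overlap (log2 fold change -0.26 ± 0.05 SE, adjusted p = 6.95e-05). In libraries numbered 1 to 3 alone its change was -0.22 and missed the threshold (adjusted p = 0.0519). PARD6B, a polarity scaffold, had 47.2, 53.6 and 58.6 CPM in CF high glucose, against 64.5, 69.1 and 76.0 CPM in CF normal glucose (log2 fold change -0.38 ± 0.06 SE, adjusted p = 5.36e-06). Of 32 tight junction scaffold and polarity genes 6 fell and 1 rose (21.9% called, near the 17.2% of all genes). Falls numbered 1 in libraries numbered 1 to 3 alone and 7 in those numbered 4 to 6 alone. The rise, ILDR1, was the largest change of the list (log2 fold change 0.63). It had 3.97, 4.53 and 4.82 CPM in CF high glucose, against 2.07, 2.89 and 3.58 CPM in CF normal glucose, with no overlap. In libraries numbered 1 to 3 alone ILDR1 was not called (0.49, adjusted p = 0.164). CLDN1, a sealing claudin, had 886, 1014 and 1131 CPM in CF high glucose, against 875, 887 and 943 CPM in CF normal glucose, with overlap (log2 fold change 0.16 ± 0.05 SE, adjusted p = 0.0128). That call was lost in libraries numbered 4 to 6 alone (0.06), without the number-set term and without high glucose library 2. CLDN11 (0.41 ± 0.13) lost its call under 12 of the 28 alternatives, among them each number set alone and the fits without high glucose library 3, 4 or 5 or normal glucose library 2, 3 or 6. CLDN4 (0.05 ± 0.06, adjusted p = 0.599) and the scaffold TJP1 (-0.09 ± 0.05, adjusted p = 0.252) did not pass the test.

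At adherens junctions and desmosomes, AFDN, the afadin scaffold, had 478, 554 and 615 CPM in CF high glucose, against 601, 733 and 781 CPM in CF normal glucose (log2 fold change -0.38 ± 0.05 SE, adjusted p = 2.09e-07). NECTIN1 had 24.4, 25.3 and 25.9 CPM in CF high glucose, against 15.7, 17.2 and 19.9 CPM in CF normal glucose (log2 fold change 0.53 ± 0.07 SE, adjusted p = 6.2e-07), and NECTIN4, a related adhesion protein, fell (-0.37 ± 0.05). PKP2, a desmosomal plaque protein, had 73.8, 79.0 and 83.1 CPM in CF high glucose, against 94.4, 102 and 105 CPM in CF normal glucose, with no overlap (log2 fold change -0.36 ± 0.05 SE, adjusted p = 7.86e-07). CDH1, E-cadherin, fell a little (-0.20 ± 0.04) and lost its call without the number-set term (adjusted p = 0.0828) and in libraries numbered 1 to 3 alone (0.146). Of channels between or across cells, the pannexin PANX1 had 252, 283 and 318 CPM in CF high glucose, against 360.1, 387 and 396 CPM in CF normal glucose (log2 fold change -0.44 ± 0.05 SE, adjusted p = 5.53e-08), and the connexin GJA5 rose (0.57 ± 0.09). KRT17, a keratin of stressed and basal-type epithelium, had 446, 509 and 569 CPM in CF high glucose, against 621, 810.3 and 986 CPM in CF normal glucose (log2 fold change -0.65 ± 0.10 SE, adjusted p = 8.93e-05). ITGB4, the hemidesmosome integrin, had 1082, 1215 and 1365 CPM in CF high glucose, against 1379, 1761 and 2029 CPM in CF normal glucose (log2 fold change -0.48 ± 0.05 SE, adjusted p = 2.15e-08). Neither KRT17 nor ITGB4 overlapped between groups.

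Genes of the Wnt, BMP and TGF-beta pathways, which pattern epithelia, moved in both directions. ROR2, a receptor for Wnt5a, had 9.16, 12.1 and 13.9 CPM in CF high glucose, against 22.6, 27.9 and 28.9 CPM in CF normal glucose, and no library overlapped (log2 fold change -1.17 ± 0.08 SE, adjusted p = 8.56e-13; ENSG00000169071, GRCh38 chromosome 9, 91563091 to 91950162). LGR4, an R-spondin receptor, fell (-0.39 ± 0.05). FZD2, a frizzled receptor, had 47.3, 50.9 and 57.2 CPM in CF high glucose, against 33.8, 37.5 and 45.4 CPM in CF normal glucose (log2 fold change 0.43 ± 0.07 SE, adjusted p = 7.79e-06), and APCDD1, a membrane inhibitor of Wnt signalling, had 51.5, 54.5 and 57.7 CPM in CF high glucose, against 38.4, 39.3 and 44.4 CPM in CF normal glucose (log2 fold change 0.44 ± 0.05 SE, adjusted p = 2.1e-07). Both were higher in every high glucose library. Of 33 Wnt genes 7 rose and 5 fell (36.4% called, against 17.2% of all genes). NOG, noggin, which blocks BMPs, had 31.3, 36.8 and 47.8 CPM in CF high glucose, against 70.0, 78.4 and 88.5 CPM in CF normal glucose (log2 fold change -1.04 ± 0.12 SE, adjusted p = 2.52e-06). BMP5, a ligand of that family, had 6.84, 9.03 and 10.0 CPM in CF high glucose, against 4.12, 4.51 and 5.52 CPM in CF normal glucose (log2 fold change 0.88 ± 0.11 SE, adjusted p = 3.21e-07). INHBB, the activin B subunit, had 5.59, 6.85 and 8.69 CPM in CF high glucose, against 10.0, 12.1 and 15.9 CPM in CF normal glucose (log2 fold change -0.88 ± 0.11 SE, adjusted p = 1.7e-07). None of these 3 genes overlapped between groups. TGFBR1, the type I TGF-beta receptor, fell (-0.37 ± 0.05).

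Notch genes fell more often than they rose: of 21 tested genes 7 were lower and 2 higher (42.9% called, against 17.2% of all genes). DLL1, a ligand, had 44.4, 55.8 and 64.5 CPM in CF high glucose, against 75.8, 90.5 and 98.5 CPM in CF normal glucose (log2 fold change -0.67 ± 0.06 SE, adjusted p = 6.26e-10), and JAG1, another ligand, had 12.7, 14.8 and 17.9 CPM in CF high glucose, against 20.8, 23.1 and 25.1 CPM in CF normal glucose (log2 fold change -0.63 ± 0.08 SE, adjusted p = 2.12e-07). In each the 6 high glucose libraries were the 6 lowest. NOTCH1, a receptor, fell (-0.44 ± 0.06) but was not called in libraries numbered 1 to 3 alone (-0.21, adjusted p = 0.0685). Without the number-set term 3 of the list were lower.

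In the growth factor and immediate early lists falls outnumbered rises. Of 22 AP-1 and immediate early genes 8 fell and 2 rose (45.5% called, against 17.2% of all genes), with a median of -0.17. Falls numbered 5 in libraries numbered 1 to 3 alone and 9 in those numbered 4 to 6 alone. FOSL2, a partner of JUN, had 221, 228 and 244 CPM in CF high glucose, against 306, 327 and 391.55 CPM in CF normal glucose, with no overlap (log2 fold change -0.58 ± 0.06 SE, adjusted p = 3.5e-08). JUN (-0.45 ± 0.07) and the small Maf protein MAFF (-0.48 ± 0.06) fell, and the antiproliferative BTG2 rose (0.42 ± 0.08). DUSP5, a nuclear phosphatase of ERK that ERK signalling induces, had 49.974, 53.0 and 56.9 CPM in CF high glucose, against 62.2, 74.0 and 88.1 CPM in CF normal glucose (log2 fold change -0.46 ± 0.06 SE, adjusted p = 1.41e-06). TGFA, an EGF receptor ligand, fell (-0.30 ± 0.05). Of 26 genes of EGF receptors, ligands and ERK feedback 7 fell and 2 rose (34.6% called, against 17.2% of all genes). Targets of YAP and TEAD, factors that answer to cell shape and contact, had 9 falls and 0 rises among 18 tested. This was 50% called, against 17.2% of all genes, with a median of -0.17. Falls numbered 4 in libraries numbered 1 to 3 alone and 9 in those numbered 4 to 6 alone. The called falls included tissue factor F3 (-0.36 ± 0.05) and the TEAD cofactor VGLL3 (-0.34 ± 0.05).

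Secreted proteases and their inhibitors changed in both directions. MMP2, a gelatinase, had 57.5, 73.9 and 89.9 CPM in CF high glucose, against 36.5, 45.0 and 52.8 CPM in CF normal glucose (log2 fold change 0.71 ± 0.08 SE, adjusted p = 1.56e-07), and TIMP3, an inhibitor of such enzymes, had 21.4, 24.0 and 25.8 CPM in CF high glucose, against 31.0, 37.5 and 39.4 CPM in CF normal glucose (log2 fold change -0.61 ± 0.08 SE, adjusted p = 2.25e-07). In both genes the groups were separate. FGFBP1, a carrier that releases stored fibroblast growth factors, had 17.5, 20.3 and 24.6 CPM in CF high glucose, against 8.67, 11.8 and 13.9 CPM in CF normal glucose (log2 fold change 0.84 ± 0.10 SE, adjusted p = 1.71e-07). PLAT, tissue plasminogen activator, rose (0.85 ± 0.09), and the membrane protease MMP15 rose too (0.42 ± 0.05).

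Among defence genes 9 of 20 tested rose and 3 fell (60% called, against 17.2% of all genes). Rises numbered 6 in libraries numbered 1 to 3 alone and 7 in those numbered 4 to 6 alone. Complement factor CFB (0.64 ± 0.11) and the antiprotease SLPI (0.40 ± 0.06) rose, while complement C3 fell (-0.32 ± 0.04). SLPI lost its call under 2 of the 28 alternatives. Cytokines and NF-kB genes had 5 rises and 8 falls of 35 (37.1% called, against 17.2% of all genes). There were 6 rises and 2 falls in libraries numbered 1 to 3 alone, and 1 rise and 14 falls in numbers 4 to 6 alone. LIF, an interleukin-6 family cytokine, fell (-0.41 ± 0.06), and CSF1, the macrophage growth factor, rose (0.49 ± 0.08); both were called in each set. CCL5, a chemokine, was 0.75 in numbers 1 to 3 and 0.10 in numbers 4 to 6. Interferon-stimulated genes had 8 rises and 0 falls of 33 (24.2% called, against 17.2% of all genes). Libraries numbered 1 to 3 alone gave 4 rises and 0 falls, and numbers 4 to 6 alone gave 6 rises and 2 falls. Among the rises was OAS1, which makes the activator of RNase L (0.32 ± 0.07).

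Heat shock genes of the cytosol rose: 10 of 19 were higher and 1, the regulator HSF1 (-0.20 ± 0.05), was lower. The list had 57.9% called, against 17.2% of all genes, and a median of 0.16. Rises numbered 12 in libraries numbered 1 to 3 alone and 3 in those numbered 4 to 6 alone. HSPA1A, an inducible HSP70, had 159, 181 and 202 CPM in CF high glucose, against 98.3, 126 and 149 CPM in CF normal glucose, without overlap (log2 fold change 0.52 ± 0.06 SE, adjusted p = 2.34e-07). Its near-identical neighbour HSPA1B (0.41 ± 0.06) may share reads with it. The small heat shock protein HSPB1 rose as well (0.33 ± 0.05). HSF1 was not called in libraries numbered 1 to 3 alone (-0.05, adjusted p = 0.718). In the ATF4 list, CHAC1, which degrades glutathione, rose (0.77 ± 0.16) while DDIT3, the stress factor CHOP, fell (-0.51 ± 0.10).

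Part of the genes that license and copy DNA fell, and genes of mitosis did not pass the test apart from 1. Of 36 replication genes 12 fell and 0 rose (33.3% called, against 17.2% of all genes), with a median of -0.10. Falls numbered 4 in libraries numbered 1 to 3 alone and 13 in those numbered 4 to 6 alone. With scaling for length and GC content 20 fell, and without the number-set term 7. Of 31 mitotic genes 1, ANLN (-0.15 ± 0.05), fell (median -0.01; 3.23% called, against 17.2% of all genes). Its call was lost under 13 of the 28 alternatives, among them each number set alone, the fit without the number-set term and the fits without high glucose library 2, 4 or 6 or normal glucose library 1. CDT1, which loads the replicative helicase, had 68.6, 75.8 and 86.6 CPM in CF high glucose, against 86.5, 104 and 122 CPM in CF normal glucose (log2 fold change -0.43 ± 0.06 SE, adjusted p = 8.47e-07), with a slight overlap. CDKN1A, the inhibitor p21, had 200.2, 227 and 275 CPM in CF high glucose, against 304, 325 and 336 CPM in CF normal glucose and no overlap (log2 fold change -0.48 ± 0.05 SE, adjusted p = 1.95e-08). MDM2, which like p21 is a p53 target and which degrades p53, fell (-0.44 ± 0.05), and so did RBL1, a relative of the retinoblastoma protein (-0.25 ± 0.05).

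Among chromatin genes, HDAC9, a class IIa deacetylase, had 27.8, 30.1 and 33.7 CPM in CF high glucose, against 43.1, 51.4 and 62.7 CPM in CF normal glucose, with no overlap (log2 fold change -0.76 ± 0.07 SE, adjusted p = 1.04e-10). Its list had 6 falls and 0 rises among 12 genes (50% called, against 17.2% of all genes). The falls included SIK3, a kinase of class IIa deacetylases (-0.59 ± 0.11). Histone demethylases had 7 falls and 1 rise among 19 (42.1% called, against 17.2% of all genes). In libraries numbered 1 to 3 alone 2 of those fell, and in numbers 4 to 6 alone 7. FAM78A, of no well-described role, had 9.22, 11.4 and 13.3 CPM in CF high glucose, against 3.11, 4.95 and 7.62 CPM in CF normal glucose (log2 fold change 1.11 ± 0.14 SE, adjusted p = 2.52e-07), the third highest fold change among abundant protein-coding genes with no overlap. Among long noncoding genes by the same rule, MIR205HG, the host gene of miR-205, rose most (0.78 ± 0.09) and LINC01293 fell most (-0.85 ± 0.12). The strand setting of the counting is not stated in the labels, and reads of overlapping genes on opposite strands may be mixed in these values.

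The size of several responses differed between libraries numbered 1 to 3 and 4 to 6. The difference was called for 192 of 16338 genes (1.18%), 50 with a higher (0.306%) and 142 with a lower (0.869%) fold change in numbers 4 to 6. TXNIP had 886 to 986 CPM in high glucose libraries 1 to 3 and 939 to 998 CPM in 4 to 6, against 280.1 to 373 CPM and 160.1 to 189 CPM in the same sets of normal glucose. Its response was thus 1.54 in numbers 1 to 3 and 2.42 in numbers 4 to 6 (difference 0.89 ± 0.20 SE, adjusted p = 0.0385), and the sets differed mainly in the normal glucose libraries. PLIN2 showed the same form, with 35.8 to 44.3 CPM and 35.9 to 36.5 CPM in high glucose, against 66.4 to 78.4 CPM and 86.5 to 103 CPM in normal glucose (difference -0.56 ± 0.12 SE, adjusted p = 0.00644). KRT17 fell less in numbers 1 to 3 (-0.34) than in numbers 4 to 6 (-0.94; difference -0.60 ± 0.10 SE, adjusted p = 0.000411). FGFBP1 rose more in numbers 1 to 3 (1.19) than in numbers 4 to 6 (0.50; difference -0.68 ± 0.16 SE, adjusted p = 0.0182). What the number sets stand for was not tested.

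**Figure D4:**
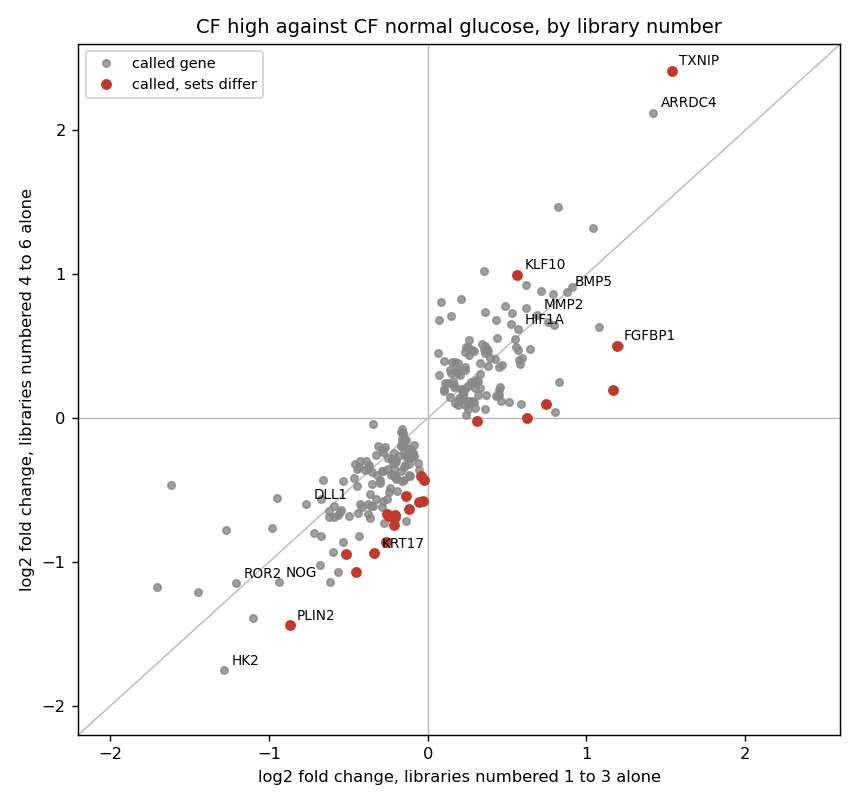
Log2 fold change of 256 called genes in CF high against CF normal glucose, from libraries numbered 1 to 3 alone (horizontal) and 4 to 6 alone (vertical), which share no library; red points are genes whose change differed between the sets at an adjusted p under 0.05. All but 2 genes have the same sign in both sets, and TXNIP lies at 1.54 and 2.42. The genes were called from both sets together, which favours a shared sign.

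WT cells were compared to see which responses differed in CF cells. By the same model the WT calls numbered 1418 (8.68%), of which 674 genes rose (4.13%) and 744 fell (4.55%). Genes called in both lines numbered 363 higher in both, 381 lower in both and 8 in opposite directions. The difference of the responses was called for 146 genes (0.894%), 70 with a higher (0.428%) and 76 with a lower (0.465%) change in CF cells. Of these 47.9% were higher, and 36.8% of 185 when mitochondrially encoded genes were left out. Only 6 of these were called without the number-set term. PLIN2 fell more in CF cells (-1.15 ± 0.08) than in WT cells (-0.35 ± 0.09), a difference of -0.79 ± 0.11 SE, adjusted p = 0.000585. HDAC9 did likewise, at -0.76 ± 0.07 in CF and -0.17 ± 0.07 in WT cells (difference -0.59 ± 0.09 SE, adjusted p = 0.000926). APCDD1 rose in CF cells (0.44 ± 0.05) and was not called in WT cells (-0.03 ± 0.05; difference 0.47 ± 0.08 SE, adjusted p = 0.00095). CTGF, a matricellular protein and YAP target, fell in CF cells (-0.35 ± 0.07) and rose in WT cells (0.28 ± 0.07; difference -0.63 ± 0.10 SE, adjusted p = 0.000807). These 4 differences were called under all 31 alternatives run for them.

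Other differences held when each of 23 libraries was left out but were lost without the number-set term. FNIP1 fell in CF cells (-0.70 ± 0.06), against -0.16 ± 0.07 in WT cells (difference -0.54 ± 0.09 SE, adjusted p = 0.00172; 0.0982 without the term). JAG1 fell in CF cells (-0.63 ± 0.08), against -0.06 ± 0.09 in WT cells (difference -0.56 ± 0.12 SE, adjusted p = 0.0108; 0.0982 without the term). ERO1A behaved alike, at -0.51 ± 0.06 in CF and -0.06 ± 0.06 in WT cells (difference -0.45 ± 0.09 SE, adjusted p = 0.00615; 0.186 without the term). FAM78A rose in CF cells (1.11 ± 0.14) and was -0.02 ± 0.14 in WT cells (difference 1.13 ± 0.20 SE, adjusted p = 0.0018; 0.0943 without the term). ROR2 (-1.17 ± 0.08 in CF, -0.60 ± 0.08 in WT cells) fell in both lines, by more in CF cells (difference -0.57 ± 0.11 SE, adjusted p = 0.00571). HK2 also fell in both (-1.52 ± 0.10 in CF, -0.87 ± 0.11 in WT cells), but its difference (-0.65 ± 0.14 SE, adjusted p = 0.0336) was lost in 9 of 23 fits without 1 library. The differences of BMP5 (0.63 ± 0.16 SE, adjusted p = 0.0339), NECTIN1 (0.40 ± 0.10 SE, adjusted p = 0.0333), HSPA1A (0.40 ± 0.09 SE, adjusted p = 0.0267) and MID1IP1 (0.45 ± 0.10 SE, adjusted p = 0.0234) were lost in 14, 14, 10 and 3 of those fits. For TXNIP the difference of 0.79 ± 0.21 SE, adjusted p = 0.084 did not pass.

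**Figure D5:**
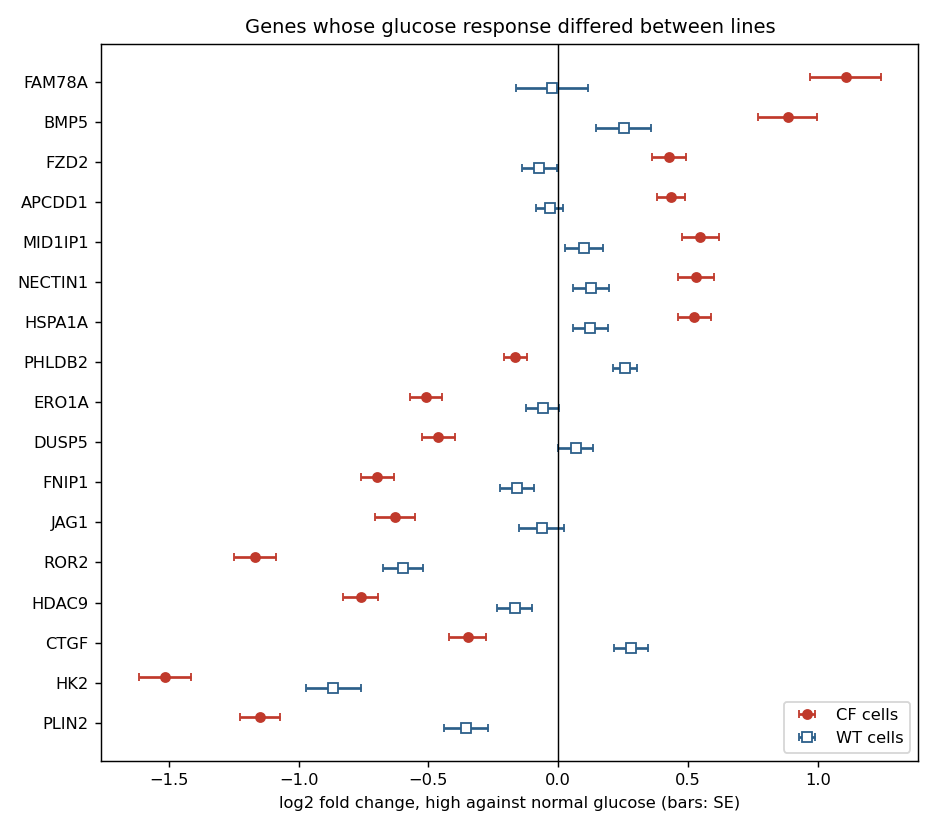
Log2 fold change of high against normal glucose in CF cells (red circles) and WT cells (open blue squares) for 17 genes whose difference was called, with SE bars, ordered by the difference. CTGF and PHLDB2 are among the genes that lie on opposite sides of 0 in the 2 lines, whereas HK2 and ROR2 fell in both and by more in CF cells.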

How the data were processed

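Poly-A RNA of 26 libraries was sequenced, per the labels' protocols. Reads were aligned with HISAT2 to hg38, per the submitters' processing notes; versions, counting tool and strand setting: not given in the sources used here. The authors deposited raw counts per gene and FPKM, a unit that divides by gene length and read total.

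Counts of the 23 glucose libraries were fitted with edgeR 4.0.16 in R 4.3.3 (TMM, filterByExpr by group with a minimum count of 10 and minimum total of 15, robust quasi-likelihood, 18 residual degrees of freedom). The model held 4 group means and a term for library number 1 to 3 or 4 to 6, with Benjamini-Hochberg adjustment over all 16338 genes. A second fit with 8 means tested the difference between the sets. P-values of genes come from these edgeR models. Replicates differed by more than sampling noise in every pair of libraries of a group (chi-square per degree of freedom at least 2.36).

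The comparison and the 60 gene lists were chosen with earlier results of these data known. Genes were named by rule: among called coding genes that averaged 5 CPM or more and did not overlap between groups, the 8 with the highest and the 8 with the lowest fold change. To these come the 5 largest rises and falls in CPM, 3 long noncoding genes each way and up to 3 called members of each list each way, if they averaged 1 CPM or more. For the CF against WT difference they are the smallest p-values. Other list members were named after their values were seen, and not every gene under the rule is described: 3 are not reported here, though all counts include them. Promoter windows came from RefSeq (GRCh38.p14). On simulated glucose changes in CF cells, over 16145 genes, 34 of 50 genes changed 1.25-fold and 50 of 50 changed 1.5-fold were recovered, with 5 false calls. Alternatives included DESeq2 1.42.0 and limma 3.58.1 on log2(FPKM + 1) and log2(FPKM + 0.1).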

Additional observations from a re-analysis of the deposited data

Results flagged for a closer look

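Of 108 groups of 6 CF libraries, from 54 genes, 4 had 1 library set apart from the other 5 by more than Dixon's critical share of the range; chance flags about 1 in 20 groups. HIF1A was 128 CPM in normal glucose library 1, next to 108 CPM in the nearest library. ERO1A was 2584 CPM in high glucose library 3, where the nearest had 2123 CPM. OCLN was 136 CPM in high glucose library 1, next to 122 CPM. SGK1 was 9.59 CPM in high glucose library 4, next to 7.72 CPM. All 4 genes remained called without the library named.

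The CF response differed between libraries numbered 4 to 6 and 1 to 3 by a test of that difference. In log2 fold change, 4 to 6 minus 1 to 3, it was 0.89 for TXNIP, 0.44 for KLF10, -0.56 for PLIN2 and -0.43 for IRS2. It was -0.43 for DUSP5, -0.68 for FGFBP1 and -0.60 for KRT17. The 5 genes with the smallest p for this difference were VTCN1, an inhibitory ligand of T cells (0.93), the cytochrome CYP1B1 (0.79), the basement membrane protein NID1 (-1.05), the VEGF receptor KDR (-1.39) and the natriuretic peptide receptor NPR1 (-1.28). KDR had 19.5 to 24.6 CPM and 20.6 to 23.4 CPM in high glucose libraries 1 to 3 and 4 to 6, against 12.8 to 13.9 CPM and 32.7 to 38.6 CPM in normal glucose.

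The response also differed between the lines by the interaction test. As CF minus WT, the difference was 1.13 for FAM78A, 0.63 for BMP5, 0.50 for FZD2 and 0.47 for APCDD1. It was 0.45 for MID1IP1, 0.40 for NECTIN1 and 0.40 for HSPA1A. It was negative for PLIN2 (-0.79), HK2 (-0.65), CTGF (-0.63), HDAC9 (-0.59), ROR2 (-0.57) and JAG1 (-0.56). FNIP1 (-0.54), DUSP5 (-0.53), ERO1A (-0.45) and PHLDB2 (-0.42), an adaptor of focal adhesions, were negative as well.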

How the results depend on the processing

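The count of genes called in CF cells was within 1.5 times of 2812 under the other settings, except 1374 without the number-set term, 1068 in CF libraries alone without it (a setting added after the data were seen) and 1349 in libraries numbered 1 to 3 alone. Numbers 4 to 6 alone called 2330, 39.7% of them higher, against 49.5% of the 2812. Leaving out 1 CF library gave 2364 to 3016. Without the term, falls numbered 6 against 10 with it in glycolysis, 4 against 8 in actin and myosin and 4 against 8 in cytokines. Rises numbered 4 against 7 in fatty acid synthesis, 6 against 10 in heat shock, 5 against 9 in defence and 5 against 8 in interferon-stimulated genes. No setting shifted the median log2 fold change of all genes by over 0.1. Scaling of the counts itself holds that median near 0, so this is no test of the scale. In WT cells 1418 became 484 without the term, and 1007 to 1612 with 1 library left out. Differences between the lines numbered 146, but 353 by DESeq2, 254 without a low-count filter, 6 without the term, 297 with the term fitted in each line, and 61 (without WT high glucose 3) to 326 (without CF normal glucose 3) with 1 library left out. The number was 90 without CF high glucose 6, 79 and 76 without CF normal glucose 5 and 6, 87 without WT high glucose 2, and 82 and 79 without WT normal glucose 3 and 6. Without mitochondrially encoded genes it was 185, of which 36.8% were higher, against 47.9%. Differences between number sets numbered 192, and 91 (without CF high glucose 6) to 196 with 1 library left out: 106 without CF high glucose 3, and 118, 102 and 123 without CF normal glucose 1, 5 and 6. The causes were not tested.

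With a replicate block for the library number the counts were 2561 in CF cells, 1092 in WT cells and 73 for the lines. The values do not decide whether the numbers pair the libraries. After group means and the number-set term were removed, same-numbered CF libraries had a mean correlation of -0.105 across genes. Between high and normal glucose libraries with other numbers of the same set it was -0.152. Removing those means itself lowers correlations within a set, so values below 0 do not show that pairing is absent. Among the 3 normal glucose libraries of its own set, the own number was the best match for 3 of 6 high glucose libraries.

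Reversed signs were few among the genes reported by name. In libraries numbered 4 to 6 alone they were AKR1B1 (-0.0021), CLDN4 (-0.022), CYP1B1 (0.17), NID1 (-0.32), NPR1 (-0.26) and VTCN1 (0.32), and in numbers 1 to 3 alone ACTB (0.030) and KDR (0.72). KDR was 0.013 on log2(FPKM + 0.1) and ran between -0.16 and 0.079 with 1 library left out.

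On simulated data at these depths 34 of 50 changes of the smallest size simulated were recovered. The simulation changed far fewer genes than were called here, and none of low level, so this share cannot be carried over to these data. No protein, barrier or transport measurement is in these libraries.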

Other observations

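Groups outside the main comparison also held called genes. Of 16 tested clock genes 4 fell and 1 rose (31.25% called, against 17.2% of all genes). NFIL3, a repressor of clock output, was -0.51 ± 0.07 on the log2 scale. RORA, a nuclear receptor that activates the clock gene BMAL1, was -1.30 ± 0.22 at a mean of 1.54 ± 0.489 CPM in CF high glucose and 3.81 ± 0.956 CPM in CF normal glucose (SD, n = 6 each). Of 26 N-glycan genes 5 rose and 1 fell (23.1% called, against 17.2% of all genes). FUT8, which adds core fucose, rose (0.38 ± 0.06). Of 31 actin and myosin genes 8 fell and 1 rose, with tropomyosin TPM1 at -0.30 ± 0.04 and calponin CNN3 at -0.22 ± 0.05. In libraries numbered 1 to 3 alone 2 of that list fell and 2 rose, and in numbers 4 to 6 alone 13 fell and 0 rose. PTGS2, the inducible cyclooxygenase, fell (-0.54 ± 0.11).

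Of the long noncoding genes picked by fold change, BLACAT1 (0.70 ± 0.11) and AC022784.1 (0.49 ± 0.10) rose beside MIR205HG, and AC083843.2 (-0.75 ± 0.10) and NRAV (-0.44 ± 0.08), a regulator of antiviral genes, fell beside LINC01293. PTMA, prothymosin alpha, and HSPA8, the constitutive HSP70, were among the 5 largest rises in CPM. The PTMA call was lost in 13 of 28 alternatives, 7 of them fits without 1 library (high glucose 2, 3 or 6, normal glucose 1, 2, 4 or 5). HSPA8 averaged 915 ± 108 CPM in CF high glucose and 791 ± 80.0 CPM in CF normal glucose (SD, n = 6 each), and its call was lost in 3 of 28 alternatives. Of 37 complex I subunits 4 rose and 0 fell (10.8% called, below the 17.2% of all genes, of which 8.52% rose), and 0 were called without the number-set term.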
